A study of Mus musculus with 6 samples.

Results

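Expression of 9 mouse genes was followed in circulating and primary tumour cells: 3 genes for platelet-derived growth factor (PDGF) chains (Pdgfa, Pdgfb and Pdgfc), the receptor genes Pdgfra and Pdgfrb, and the 4 genes of the SHB family of adaptor proteins (Shf, Shb, She and Shd). They were taken by symbol from a table of 54532 genes, and 7 of the 9 had enough counts to enter the test of 13874 genes. Shf was chosen by the measured counts themselves, as the adaptor lower in circulating cells, so its difference between the groups is a description and carries no test. The other 8 were chosen as relatives or partners, with results of these data known.

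The cells were 2208L mouse mammary tumour cells from tumour-bearing Balb/c mice, labelled as untreated. The group CTC held 3 libraries of circulating tumour cells recovered from blood and then propagated. The group PT held 3 libraries of cells that had been enriched for tumour cells after dissociation of the primary tumour, each matched by its label to the CTC library of the same number. Propagation is described for CTC alone, so source and handling cannot be told apart. The comparison asks how tumour cells that reached the blood differ from those left at the primary site.

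PDGF chains form dimers that are secreted and bind receptor tyrosine kinases. Chains A and C act mainly through receptor alpha, and chain B binds both receptors. A bound receptor phosphorylates its own tyrosines, and proteins with an SH2 domain dock there. In carcinomas the epithelial cells often make the ligands, while fibroblasts and pericytes carry the receptors. SHB-family proteins are adaptors without enzyme activity that link such receptors to further proteins through a carboxy-terminal SH2 domain. SHB is the best studied of them, and SHF has been described as a binding partner of PDGF receptor alpha.

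The shared docking domain is what joins the 4 adaptors, so the coding stretch around its phosphotyrosine-binding arginine is shown for each from GENCODE M21 transcripts, 63 bases, 5′ to 3′, with the arginine codon in capitals.
Shf: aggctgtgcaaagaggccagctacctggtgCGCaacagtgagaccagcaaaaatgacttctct
Shb: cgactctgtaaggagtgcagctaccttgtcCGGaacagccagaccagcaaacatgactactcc
She: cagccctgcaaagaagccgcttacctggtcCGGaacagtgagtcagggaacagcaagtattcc
Shd: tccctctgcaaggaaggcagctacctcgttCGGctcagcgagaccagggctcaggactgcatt
Shf and Shb were the closest pair, with 48 of these 63 bases identical, against 41 for Shf and She and 41 for Shf and Shd. From 25 codons before the arginine to the end of the protein, Shf and Shb shared 84% of 100 aligned residues. She and Shd shared 47%, the lowest of the 6 pairs. The longest run of coding sequence that Shf and Shb have in common was 21 bases, so their counts come from largely distinct sequence.

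Library totals ranged from 23845953 to 27897320 counts, and 3 counts, the limit that a count of 0 allows, were at most 0.129 CPM (counts scaled to the library total, here after correction by TMM) in any library, for counting error only. Markers of epithelium were abundant, at summed levels from 3058 to 8946 CPM per library over 10 genes. The sum was lowest in CTC replicate 3. Among these genes, Krt19 had 0 counts in CTC replicate 3 and in PT replicate 3. Markers of host cells were scarce beside those of epithelium. Their summed levels were at most 26.1 CPM for 12 leukocyte genes and 46.0 CPM for 10 endothelial genes. They were at most 62.6 CPM for 12 pericyte and smooth muscle genes and 154 CPM for 10 fibroblast genes.

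Shf, chosen as the adaptor lower in CTC, was the gene of the set whose values did not overlap between the groups. All CPM are scaled by TMM, a factor that corrects for library composition. It was at 3.83, 9.21 and 33.3 CPM in CTC replicates 1, 2 and 3 and at 241, 150.2 and 127 CPM in PT replicates 1, 2 and 3. Every CTC library lay below every PT library, and the lowest PT value was well above the highest CTC value. Of all genes tested, 6.16% lay lower in CTC without overlap. In counts these were 108, 221 and 852 reads against 6276, 3499 and 3072. The group means were 15.5 ± 15.7 and 172.7 ± 59.8 CPM (SD, n = 3 each).

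The size of the difference varied from pair to pair. Shf was lower in CTC by 62.8-fold in pair 1, 16.3-fold in pair 2 and 3.82-fold in pair 3. The pair with the highest PT level had the lowest CTC level, and CTC replicate 3 stood nearest to PT. This order is not particular to Shf. Across genes, the matched libraries also differed most in pair 1 and least in pair 3. Their chi-square per degree of freedom was 423.6, 154.0 and 100.1 in pairs 1, 2 and 3. The fitted log2 fold change was -3.48, an 11.2-fold lower level in CTC. It was -4.73 without CTC replicate 3 and -3.02 without CTC replicate 1. In bulk RNA, fewer cells that express a gene and less RNA in each cell cannot be told apart.

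**Figure D1:**
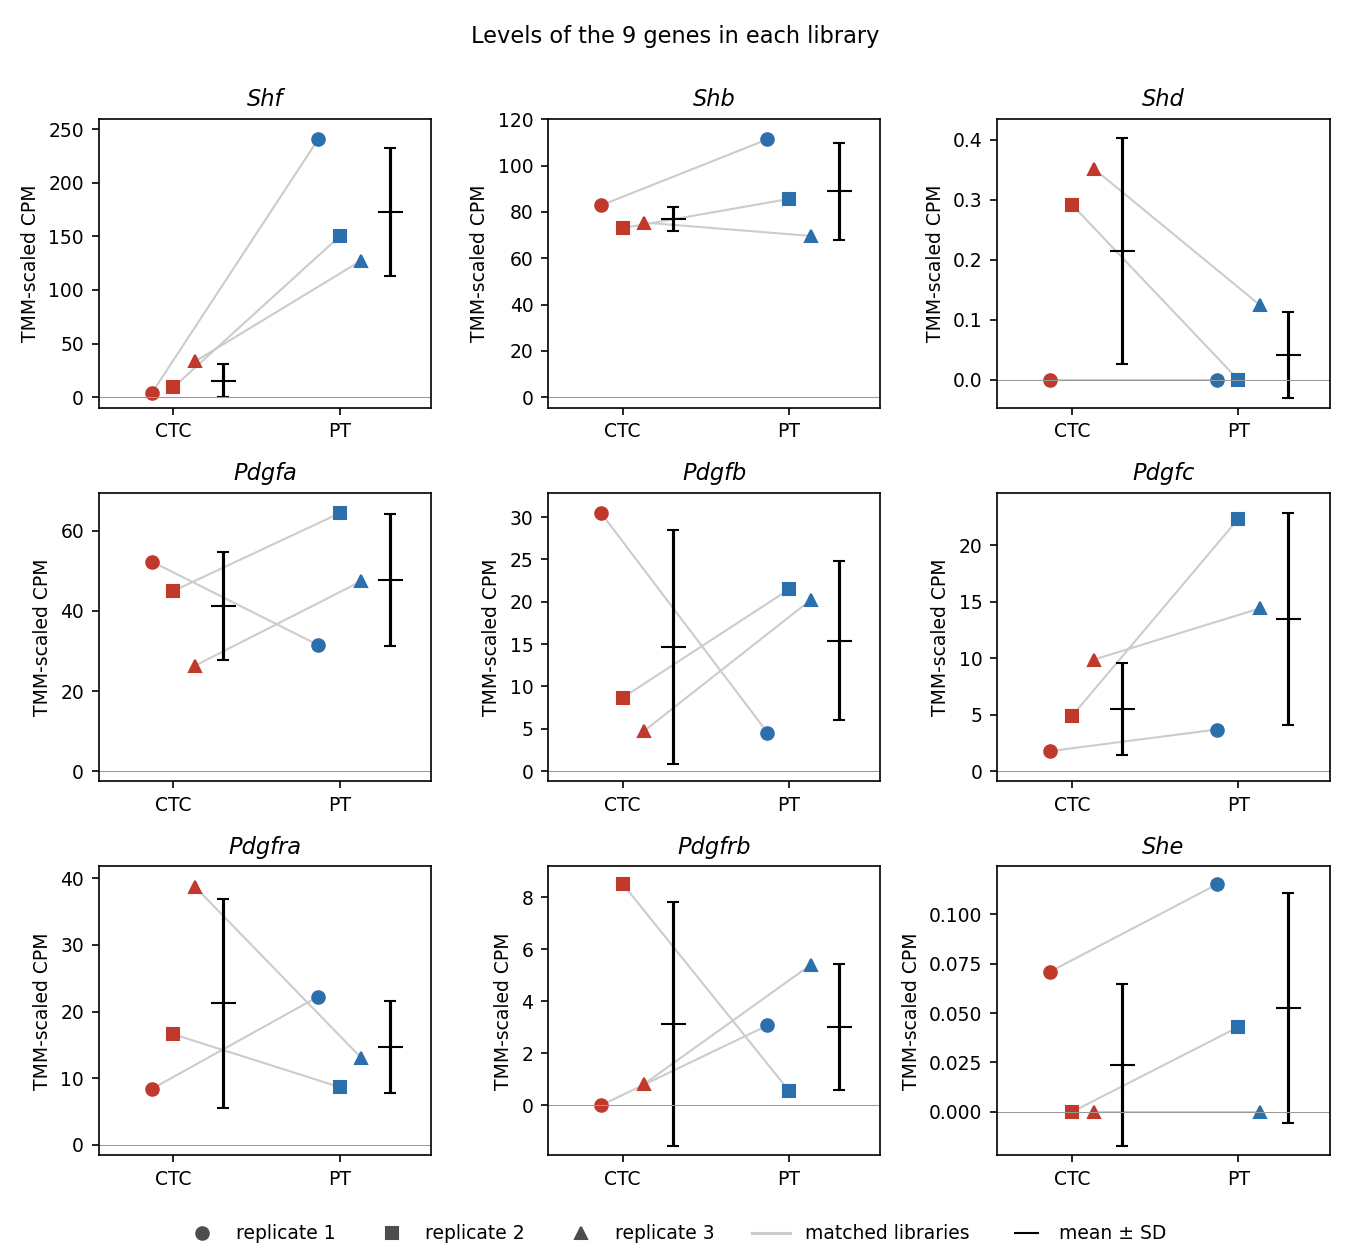
TMM-scaled CPM (vertical axes, 1 scale per gene) of the 9 genes in the 3 CTC (red) and 3 PT (blue) libraries. Symbols mark the replicate, grey lines join matched libraries and black bars give the mean ± SD of 3 libraries. Shf is at most 33.3 CPM in every CTC library and no lower than 127 CPM in PT, while the values of Shb and of the PDGF genes overlap between groups.

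Per kilobase of transcript, Shf ranked high among the genes tested in PT and lower in CTC. It exceeded 95.8%, 93.0% and 92.6% of the 13874 genes in PT replicates 1, 2 and 3. In CTC replicates 1, 2 and 3 it exceeded 27.9%, 44.8% and 72.8%. Its SD of 2.40 over the 6 libraries, on the log2 CPM scale, was larger than that of 97.1% of the 11627 genes whose mean log2 CPM reached 1. This spread contains the group difference by which Shf was chosen, so its rank adds no separate evidence.

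Shb, the founding adaptor of the family, was the steadiest of the 7 tested members. It was at 82.8, 73.0 and 75.4 CPM in CTC replicates 1, 2 and 3 and at 111, 85.6 and 69.6 CPM in PT replicates 1, 2 and 3. The groups overlapped, and the highest library was only 1.60 times the lowest. The means were 77.1 ± 5.13 CPM in the CTC group, compared with 88.8 ± 21.02 CPM in PT. Its SD over the libraries of 0.24 was larger than that of only 9.24% of the same 11627 genes. The log2 fold change was -0.21 (SE 0.26, 95% interval -0.80 to 0.39; adjusted p = 0.84 in the edgeR quasi-likelihood test).

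She and Shd were at the limit of detection. She had 2, 0 and 0 counts in the CTC libraries, compared with 3, 1 and 0 in PT. Shd had 0, 7 and 9 counts in the CTC libraries, compared with 0, 0 and 3 in PT. These counts amount to at most 0.352 CPM, both genes failed the filter on low counts, and no difference was detectable at this depth.

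As She and Shd were nearly silent, the adaptor pool was in effect Shf and Shb, and its makeup differed with Shf. By level per kilobase, Shf made up 74.99%, 70.9% and 71.7% of the family in PT replicates 1, 2 and 3. It made up 6.03%, 14.8% and 37.9% in CTC replicates 1, 2 and 3. The ratio of Shf to Shb was 2.66 ± 0.30 in PT and 0.284 ± 0.291 in CTC (SD, n = 3 each). Shf was thus the higher of both in each PT library and the lower in each CTC library. The summed family level was 102.7 ± 32.4 CPM per kilobase in PT and 30.9 ± 6.31 in CTC. Since this share contains Shf, it restates the lower Shf level and adds no separate evidence.

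**Figure D2:**
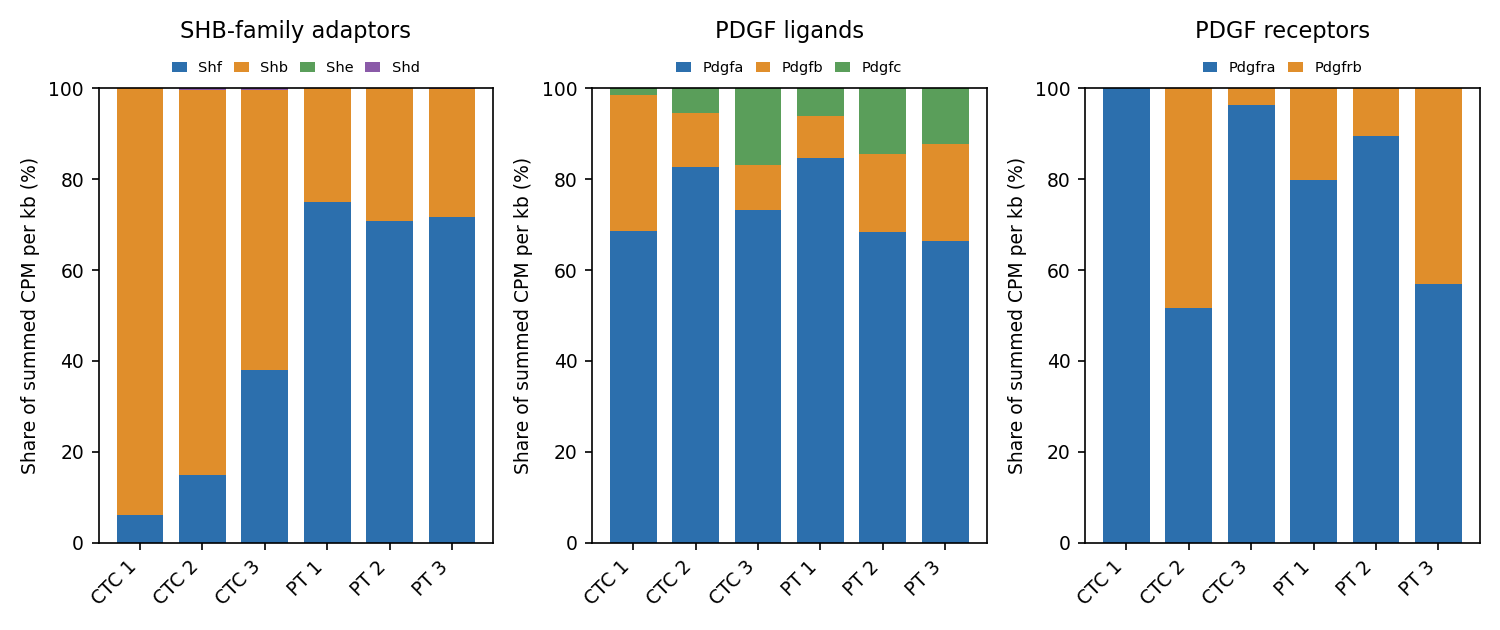
Share of each gene (vertical axes, percent of the summed CPM per kilobase of its group) among the adaptors, ligands and receptors in each library (horizontal axes). Shf holds 70.9% to 74.99% of the adaptor bar in PT and 6.03% to 37.9% in CTC, while Pdgfa is the largest ligand share and Pdgfra the larger receptor share in all 6 libraries.

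The promoters of these paralogs are shown because they share a coding domain but not a level across the libraries. The 250 bases before the outermost RefSeq start of each gene (build GRCm38.p6, minus strand) are chr2:122369148-122369397 for Shf and chr4:45530829-45531078 for Shb. The Shb window lies inside the gene as GENCODE M21 draws it, which starts farther upstream, so it is not the only candidate promoter of the counted gene. Capitals mark GGGCGG or its reverse complement CCGCCC, the GC box bound by Sp1-type factors.
Shf: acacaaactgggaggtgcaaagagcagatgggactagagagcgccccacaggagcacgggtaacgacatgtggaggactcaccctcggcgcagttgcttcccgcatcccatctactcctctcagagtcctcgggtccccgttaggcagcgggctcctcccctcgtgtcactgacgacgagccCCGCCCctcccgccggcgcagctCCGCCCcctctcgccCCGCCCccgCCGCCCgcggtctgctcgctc
Shb: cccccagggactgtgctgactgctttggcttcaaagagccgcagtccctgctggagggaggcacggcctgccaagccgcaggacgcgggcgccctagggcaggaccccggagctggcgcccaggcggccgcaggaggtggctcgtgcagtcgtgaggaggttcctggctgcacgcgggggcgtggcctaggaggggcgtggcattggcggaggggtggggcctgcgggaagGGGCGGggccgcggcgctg
Both are rich in CG dinucleotides, with 24 in Shf and 22 in Shb, more than in 88.0% and 85.2% of 32851 promoter windows of this length. The Shf window held 4 GC boxes on either strand and the Shb window 1. At least 1 was present in 32.7% of all windows and 4 or more in 4.09%. Neither window held TATAAA or TTTATA, which 12.4% of windows did. These letters describe the windows and do not show which factors bind.

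Shf lies on chromosome 2 (122348892 to 122369162, GRCm38, minus strand; ENSMUSG00000033256), and most of its neighbours did not share its pattern. Of the genes tested, 22 had their midpoint within 1 Mb of that of Shf. Their median log2 fold change was 0.018, with 12 above 0 and 10 below. The nearest neighbours were lower in CTC on average. Duox1, which encodes a dual oxidase that makes hydrogen peroxide, lies 0.919 kb from Shf and was at 0.0355, 0.167 and 0.548 CPM in the CTC libraries, compared with 1.27, 0.730 and 1.78 CPM in PT. Duoxa1, the gene for its maturation factor, lies 35.2 kb away and was at 0, 0 and 1.49 CPM in the CTC libraries, compared with 6.71, 1.37 and 2.12 CPM in PT. Duox1 did not overlap between the groups, but in CTC replicate 1 it was under the 0.107 CPM that a count of 0 allows. Duoxa1 in CTC replicate 3 was above PT replicate 2. Of the 22 neighbours, 1 lay above and 1 below without overlap, where 12.1% of all genes tested did not overlap. B2m, a subunit of MHC class I 209 kb from Shf by midpoint, had a log2 fold change of 0.53. Ckmt1, a mitochondrial creatine kinase gene 998 kb away by midpoint, was at -1.57, and Sqor, a gene of sulfide oxidation and the 1 neighbour higher in CTC without overlap, at 1.49. No other annotated gene overlapped Shf in GENCODE M21.

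**Figure D3:**
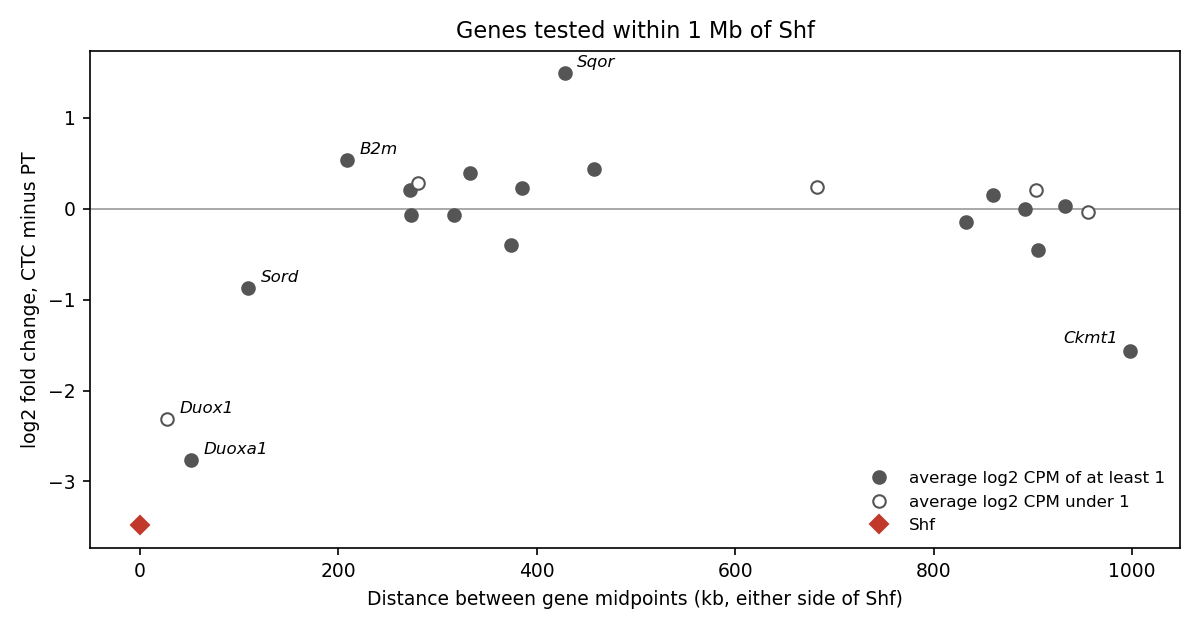
log2 fold change (CTC minus PT, vertical axis) of 22 tested genes against the distance of their midpoint from that of Shf (kb, horizontal axis). Open circles have an average log2 CPM under 1 and the red diamond is Shf. Duox1 and Duoxa1 lie low beside Shf, while the median of all 22 is 0.018.

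The genes whose profile was most like that of Shf were found by the root mean square difference between centred log2 CPM over the 6 libraries, among 10879 protein-coding genes. The 3 nearest were Rims3 (difference 0.45), Ppfibp2 (0.47) and Mgp (0.48), where the median gene differed by 2.26. Rims3, a gene of synaptic vesicle release, had 1, 8 and 28 counts in CTC replicates 1, 2 and 3 and 233, 67 and 58 in PT replicates 1, 2 and 3. Mgp, which encodes matrix Gla protein, an inhibitor of calcification, had 0, 3 and 11 counts against 286, 89 and 75. Ppfibp2, which encodes a liprin, had 2, 8 and 54 counts against 178, 263 and 127. They were picked for this likeness, so sharing the lowest library of Shf, CTC replicate 1, adds no separate evidence.

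Of the PDGF ligands, Pdgfa was the highest per kilobase in every library. Pdgfa, the A chain, was at 52.3, 44.98 and 26.3 CPM in CTC replicates 1, 2 and 3 and at 31.5, 64.4 and 47.4 CPM in PT replicates 1, 2 and 3. The groups overlapped, and Pdgfa was lower in CTC in 2 of 3 pairs. Per kilobase it was at 13.2 ± 4.29 CPM in the CTC group, compared with 15.3 ± 5.28 CPM in PT, and it made up 66.4% to 84.7% of the ligand sum. An antisense gene, 6330403L08Rik, overlaps its exons and had 141 to 496 counts. Because nothing states that counting used strand, reads of both cannot be told apart.

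Pdgfb, the B chain, spread widely inside each group. It was at 30.5, 8.67 and 4.77 CPM in CTC replicates 1, 2 and 3 and at 4.56, 21.5 and 20.2 CPM in PT replicates 1, 2 and 3. It was 6.68-fold higher in CTC in pair 1, and lower by 2.48-fold in pair 2 and 4.23-fold in pair 3. The direction thus turned between pairs, and the means, 14.6 ± 13.8 and 15.4 ± 9.42 CPM, were close. The nearest profiles were those of Slc26a9 (difference 0.21), an epithelial chloride channel gene, Ccdc122 (0.44) and Ctgf (0.44), which encodes a matrix protein induced by growth factors. Slc26a9 had 175, 37 and 27 counts in the CTC libraries, compared with 29, 141 and 97 in PT. It was high and low in the same libraries as Pdgfb because it was picked by profile. Platelets store PDGF, and of the 10 platelet markers Ppbp was highest in CTC replicate 1 too, with 485 counts against 6 to 75 elsewhere. Tubb1, Gp6 and Gp1bb had 0 counts in all 6 libraries and Pf4 at most 3. The summed platelet markers were at 19.7 CPM in CTC replicate 1 and at 3.07 to 8.63 CPM in the others. Any part of platelets in the Pdgfb level was not tested.

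Pdgfc, a chain that must be cleaved by proteases before it binds, was the ligand lower in CTC in each of 3 pairs. It was at 1.78, 4.88 and 9.86 CPM in CTC replicates 1, 2 and 3 and at 3.68, 22.3 and 14.4 CPM in PT replicates 1, 2 and 3. The groups still overlapped, because PT replicate 1 was below CTC replicates 2 and 3. Within pairs it was lower by 2.07-fold, 4.58-fold and 1.46-fold. The means were 5.50 ± 4.08 and 13.5 ± 9.35 CPM, with a fitted difference of -1.29 in log2 (SE 0.78, 95% interval -3.10 to 0.52) that did not pass (edgeR adjusted p = 0.733). Leaving out CTC replicate 3 moved it to -2.02, and leaving out PT replicate 2 moved it to -0.72. The nearest profiles were those of Nol4l (difference 0.27), Cracr2b (0.34), a regulator of calcium entry, and Tnfsf13 (0.41), the cytokine APRIL.

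Receptor transcripts were scarce per kilobase beside Pdgfa. Pdgfra was at 8.41, 16.6 and 38.7 CPM in CTC replicates 1, 2 and 3 and at 22.2, 8.67 and 13.0 CPM in PT replicates 1, 2 and 3. It was highest in CTC replicate 3 and lowest in CTC replicate 1, so the CTC libraries spanned the PT values. Per kilobase Pdgfra was at 2.12 ± 1.56 CPM in the CTC group, compared with 1.46 ± 0.69 CPM in PT. Pdgfa exceeded it per kilobase by 2.19-fold to 23.9-fold.

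Pdgfrb had the lowest mean level per kilobase of the 7 tested members and the largest SD over the 6 libraries (2.49 on the log2 CPM scale). It had 0, 204 and 21 counts in CTC replicates 1, 2 and 3 and 80, 13 and 130 counts in PT replicates 1, 2 and 3. The 0 in CTC replicate 1 allows up to 0.107 CPM, while CTC replicate 2 was at 8.50 CPM, the highest of all. PT values were 3.07, 0.558 and 5.39 CPM, inside the CTC range. Pdgfrb made up 48.4% of the receptor sum per kilobase in CTC replicate 2 and 43.1% in PT replicate 3, and at most 20.2% in the other libraries. Pdgfra was the larger in all 6. The nearest profile to Pdgfrb was that of Prelp, a matrix proteoglycan gene, at a difference of 1.11, followed by Ank1 (1.16) and Ncam1 (1.27), so no gene matched Pdgfrb as closely as Slc26a9 matched Pdgfb.

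Each PDGF receptor gene neighbours another receptor of the same structural class. Csf1r, the receptor of macrophage colony-stimulating factor, lies 20.5 kb from Pdgfrb on chromosome 18 and had 157, 488 and 5 counts in the CTC libraries, compared with 2, 32 and 2 in PT. Both were highest in CTC replicate 2, but in CTC replicate 1 Csf1r was present and Pdgfrb was at 0. Kit, the stem cell factor receptor, lies 377 kb from Pdgfra on chromosome 5 and had 0, 6 and 141 counts in the CTC libraries, compared with 10, 21 and 3 in PT. Both were highest in CTC replicate 3.

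Fibroblasts and pericytes normally express these receptors, so sums of their markers are given beside Pdgfra. The summed level of 10 fibroblast markers was 3.98, 59.4 and 154 CPM in CTC replicates 1, 2 and 3 and 63.8, 10.001 and 44.98 CPM in PT, the same order over the 6 libraries as Pdgfra. The order is that of the sum only, since its main parts, Col3a1, Dcn and Postn, differed between libraries. Of the 10 markers, 4 were tested, 2 with a positive and 2 with a negative log2 fold change. Col3a1 had 3184 counts in CTC replicate 3, and Dcn had 796 in CTC replicate 2 and 1147 in PT replicate 1. Lum and Dpt were at 0 in all libraries, Col1a1 had at most 44 counts and Fap at most 4. The 12 pericyte and smooth muscle markers summed to 8.80, 23.8 and 32.8 CPM in the CTC libraries, compared with 62.6, 13.2 and 51.7 CPM in PT, mostly from Notch3 and Mcam, an order unlike that of Pdgfra. Rgs5 had at most 13 counts, Cspg4 at most 5 and Acta2 at most 15. The part of such cells in the Pdgfra and Pdgfrb levels was not tested.

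None of the 6 members other than Shf that were tested passed in any fit. In the edgeR quasi-likelihood test the adjusted p was 0.733 or more, and 0 of the 6 had an unadjusted p under 0.05. Over all 13874 genes, edgeR called 0%, so a count of 0 among 6 is no sign that they behave differently from the rest. At an unadjusted p under 0.05 it had 3.32% of genes higher and 3.31% lower. DESeq2, which called 0.241% of genes higher and 0.283% lower, and limma-voom also called 0 of the 6. With matched pairs as a block, DESeq2 called 0.864% of genes higher and 0.973% lower, and again 0 of the 6, of which Pdgfc had the smallest adjusted p, 0.215. All 6 overlapped between the groups, where 12.1% of all genes tested did not.

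The intervals show how little the design limits these differences. The log2 fold change of Pdgfa was -0.21 (95% interval -1.08 to 0.66) and that of Pdgfra 0.54 (-0.85 to 1.92). That of Pdgfb was -0.074 (-1.89 to 1.75). Pdgfrb gave 0.045 (-3.53 to 3.62), and -2.20 with the matched pairs as a block, a turn of sign. Pdgfra turned to -0.23 without CTC replicate 3 and Pdgfa to 0.023. Pdgfb ran from -1.20 without CTC replicate 1 to 0.34 without CTC replicate 3. The direction of these 4 genes is therefore unsettled. Pdgfc and Shb stayed below 0 whichever single library was left out, but Shb came to -0.0070 without PT replicate 1. The intervals of both contain 0, so their direction is not settled either.

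**Figure D4:**
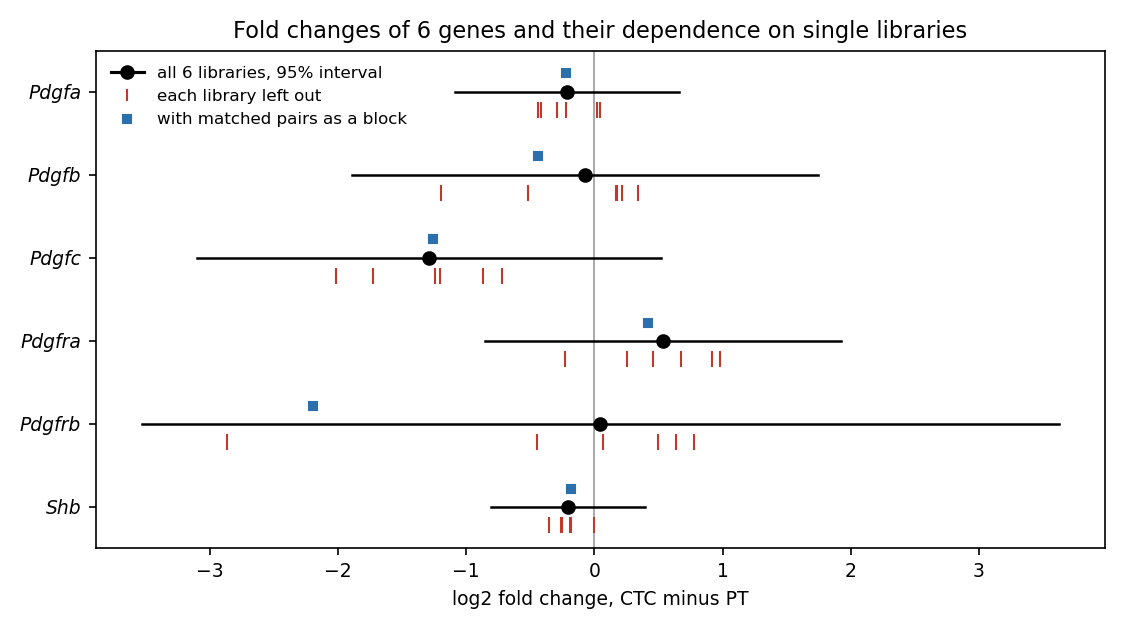
log2 fold change (CTC minus PT, horizontal axis) of 6 genes in the edgeR fit. Black points and lines are the estimate and 95% interval, red ticks the estimate without each library in turn and blue squares the fit with matched pairs as a block. All 6 intervals contain 0, and the ticks of Pdgfa, Pdgfb, Pdgfra and Pdgfrb fall on both sides of it.

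Across the libraries, Pdgfb and Pdgfra ran in nearly opposite order regardless of group. From highest to lowest, Pdgfra was ordered CTC 3, PT 1, CTC 2, PT 3, PT 2 and CTC 1. Pdgfb ran from CTC 1 through PT 2, PT 3, CTC 2 and CTC 3 to PT 1, and so turned this order around except for its lowest pair, which differed by only 4.77 against 4.56 CPM. Pdgfa ran from PT 2 through CTC 1, PT 3, CTC 2 and PT 1 to CTC 3. Pdgfc and Pdgfrb did not run opposite to Pdgfra: all 3 were lowest in CTC 1. Per kilobase, the ratio of Pdgfb to Pdgfra was 8.72 in CTC replicate 1 and 0.297 in CTC replicate 3. It was 5.96 in PT replicate 2 and 0.494 in PT replicate 1. Libraries were matched in pairs and share a scaling, so these orders are a description of 6 libraries without a test.

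**Figure D5:**
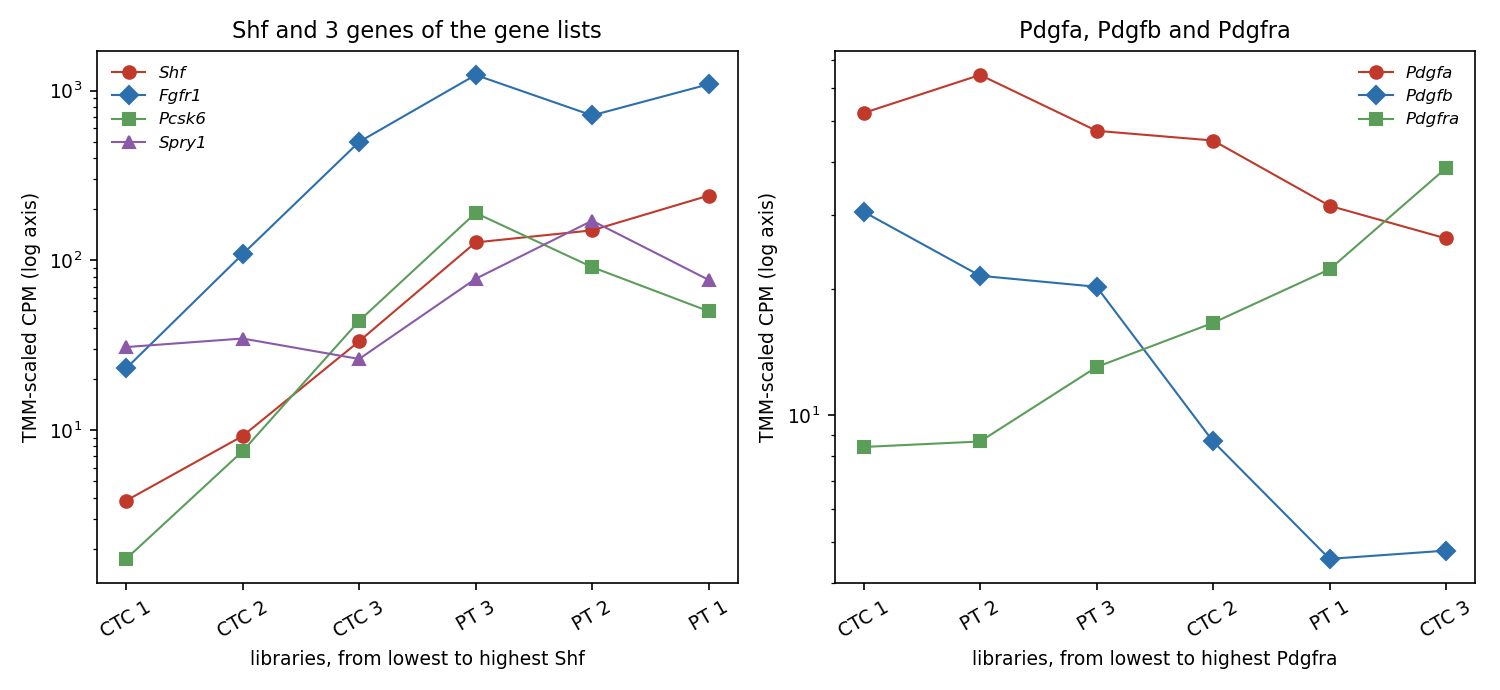
TMM-scaled CPM (vertical log axes) in each library. On the left, libraries run from lowest to highest Shf, with Fgfr1, Pcsk6 and Spry1 from the gene lists. On the right, libraries run from lowest to highest Pdgfra, and Pdgfb falls from 30.5 CPM in CTC replicate 1 to 4.77 CPM in CTC replicate 3.

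Of 11 genes that process or bind PDGF, 10 were tested and 0 passed in edgeR (smallest adjusted p = 0.726), and 1 did not overlap between groups. The median log2 fold change was -0.27, against 0.053 over all genes tested. Pcsk6, a proprotein convertase able to cleave PDGF-A, was at 1.74, 7.504 and 44.0 CPM in CTC replicates 1, 2 and 3 and at 50.1, 91.2 and 190.2 CPM in PT. The groups did not overlap, which held for 6.16% of all genes on the lower side. The order of the CTC libraries was that of Shf, while the PT libraries ran in the reverse order of Shf. With matched pairs as a block DESeq2 called Pcsk6 lower (adjusted p = 7.3e-08), against 0.0883 without it. Pcsk5, a related convertase, named after its values were seen, was at most 0.665 CPM in the CTC libraries, compared with 0.422, 10.7 and 29.9 CPM in PT (DESeq2 adjusted p = 0.049). Furin, the general convertase for PDGF-A and PDGF-B, was at 155.2 ± 32.6 and 136.4 ± 25.2 CPM. Plau, which encodes urokinase, an activator of PDGF-D and named likewise, was at 470.2, 127 and 40.5 CPM in the CTC libraries, compared with 26.5 to 47.5 CPM in PT (DESeq2 adjusted p = 0.0352, and 0.176 with the block). Plat, the activator of PDGF-C, was at 16.3 ± 2.07 and 20.8 ± 22.8 CPM. Pdgfd itself had at most 35 counts and was not tested.

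All 29 signalling genes next to the receptor were tested, 0 were called by edgeR or DESeq2, 16 had a positive log2 fold change and the median was 0.11. Across all genes 54.1% were positive. Fyn, a Src-family kinase recruited to PDGF receptors, was at 21.2 ± 6.15 CPM in the CTC group, compared with 11.1 ± 4.12 CPM in PT. Crkl, an SH2 and SH3 adaptor, was at 107 ± 12.4 and 77.8 ± 13.3 CPM. Of the 29, 3 lay higher in CTC without overlap (Fyn, Crkl and Map2k1) and 1 lay lower, beside 5.95% and 6.16% of all genes.

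Among 12 genes that attenuate receptor signalling, all of them tested, 2 lay lower in CTC without overlap and 0 higher, where 6.16% and 5.95% of all genes did. Spry1, a feedback inhibitor of receptor tyrosine kinase signalling, was at 30.8, 34.6 and 26.2 CPM in CTC replicates 1, 2 and 3 and at 76.7, 171 and 77.8 CPM in PT. Its log2 fold change was -1.83 (SE 0.38), with an adjusted p of 0.726 in edgeR, 0.0145 in DESeq2 and 0.000308 in DESeq2 with the block. Socs3, an inhibitor of cytokine signalling, was at 23.5, 47.7 and 108 CPM in CTC and nearly constant in PT at 141.6 ± 1.14 CPM. The median of the list was 0.18, and 7 of the 12 had a log2 fold change above 0.

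Immediate early genes, which growth factors induce within minutes, were divided: 9 of 18 had a log2 fold change above 0 and the median was 0.023. Fosl1, an AP-1 subunit, was at 115.3 ± 29.4 CPM in the CTC group, compared with 51.7 ± 16.7 CPM in PT. Klf6, a zinc-finger transcription factor, was at 148.8 ± 122 and 48.2 ± 0.78 CPM, with 289.9 CPM in CTC replicate 1. Both lay above PT in all CTC libraries, the only 2 of 18 to do so, and 0 lay below. Of all genes tested, 5.95% lay above and 6.16% below. In edgeR or DESeq2 0 of 18 passed, and Fos and Egr1 overlapped.

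Of the genes whose proteins bind or phosphorylate SHB, 10 of 11 were tested and 4 did not overlap, 2 each way, where 12.1% of all genes did not. Fgfr1, a fibroblast growth factor receptor, was at 23.1, 109 and 499 CPM in CTC replicates 1, 2 and 3 and at 1090, 714 and 1237 CPM in PT. Its CTC order was that of Shf, lowest in replicate 1 and highest in replicate 3 (log2 fold change -2.27, edgeR adjusted p = 0.726, DESeq2 0.136, and 0.000692 with the block). Its PT order was not: Fgfr1 was highest in PT replicate 3, where Shf was lowest. Abl1 also lay below PT in all CTC libraries, at 132.9 ± 33.2 against 164.5 ± 4.99 CPM. Jak1 was at 132.0 ± 29.9 and 73.7 ± 9.79 CPM and Ptk2, the focal adhesion kinase gene, at 97.97 ± 2.40 and 84.1 ± 14.6 CPM. Kdr, the VEGF receptor that SHB binds in endothelium, had at most 6 counts.

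Of 32 other SH2 adaptors, 22 were tested, 13 had a log2 fold change above 0, the median was 0.23, and 0 lay below PT in all CTC libraries while 2 lay above, where 6.16% and 5.95% of all genes did. Those were Crkl and Blnk, a linker best known from B cells. Blnk was at 51.3, 63.4 and 17.0 CPM in CTC replicates 1, 2 and 3 and at 13.8, 11.03 and 0.415 CPM in PT. Its adjusted p was 0.726 in edgeR and 0.743 in edgeR with the block. In DESeq2 the adjusted p was 0.188, and 0.000213 with the block. Of the 7 related class III receptors and ligands, 5 were tested, 0 lay apart in all libraries, and the median was 0.37. Of these, Csf1r, named here after its values were seen, was called higher in CTC by DESeq2 with the block (adjusted p = 0.000875, against 0.473 without it). edgeR did not call it, with an adjusted p of 0.726, and 0.762 with the block.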

How the data were processed

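RNA of 3 CTC and 3 PT libraries was measured by mRNA sequencing (100 ng total RNA each, per the labels' protocols). The authors deposited raw read counts per Ensembl gene and a gene length in bases, another column of the same table. HISAT2 and the builds GRCm38 and mm10 are named in the submitters' processing notes; no source used here gives the counter, annotation release or strand setting. Columns were matched to samples by the labels.

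Counts were tested with edgeR (version 4.0.16, R 4.3.3) by the quasi-likelihood test after filterByExpr and TMM, with Benjamini-Hochberg adjustment over 13874 genes at 0.05. Log2 CPM used a prior count of 2. DESeq2 (1.42.0), limma-voom (3.58.1), other scalings and filters, a replicate block and left-out libraries were alternatives. The tests were tested on simulated data. Levels between genes were compared per kilobase of the deposited length.

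PT titles name the CTC library each is matched with, and the series' design text speaks of matched mice, so numbers pair samples. Deviations of paired libraries from group means correlated at -0.015, 0.157 and 0.298 across genes. No libraries agreed within sampling noise (chi-square per degree of freedom at least 100.1).

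All members were named. Of each list, genes called by edgeR were to be named, and otherwise up to 2 each way with the largest log2 fold change, a mean log2 CPM from 3 upward and no overlap. For Shf and members with an SD over 1, the 3 nearest profiles were named. Neighbours, markers and all other genes were picked with their values in view. Members and lists were chosen with earlier results of these data known. Some genes that the rule names are not reported here.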

Additional observations from a re-analysis of the deposited data

How the results depend on the processing

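The number of genes called moved with the tool. edgeR called 0 genes either way, also with the replicate block, RLE or upper-quartile scaling, a filter of 1 CPM in 3 libraries, and without each library or matched pair (0 to 0 genes). Without a filter on low counts it called 121 higher and 78 lower, DESeq2 40 and 47, and DESeq2 with the replicate block 119 and 134; the cause was not tested. No alternative called any of the 6 members. The sign of Pdgfrb turned to -2.20 in edgeR with the replicate block, -2.69 in DESeq2 with the block and -2.23 in limma-voom. As a difference of mean log2 CPM, with a prior count of 0.5 and no fit, Pdgfrb was at -2.03. Leaving out libraries or pairs gave ranges of -3.36 to 1.22 for Pdgfrb, -1.61 to 0.58 for Pdgfb, -0.63 to 0.045 for Pdgfa, -0.31 to 1.37 for Pdgfra, -2.02 to -0.64 for Pdgfc, -0.35 to -0.0070 for Shb and -4.91 to -2.69 for Shf. The block changed no call among the 6 members. By raw counts in place of counts per kilobase, Shf and Shb made up 65.6% and 34.4% of the adaptors in PT, from 72.5% and 27.4%, Pdgfa 67.7% of the ligands in CTC, from 74.8%, and Pdgfc 15.8% in PT, from 10.99%, since gene lengths differ. Depth left She and Shd, with at most 9 counts in a library, untested.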
